A study of Mus musculus with 10 samples.

Results

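Cytosolic ribosomal protein genes were examined in left ventricular tissue of control and HFD+mTAC mice. They were chosen by symbol: Rpl or Rps with a number and at most one letter (a, x or l), or Rplp0, Rplp1, Rplp2, Rpsa or Fau, with pseudogene symbols left out and a mean of at least 1 TPM over the 10 mice. Of 29564 genes listed, 82 symbols matched and 75 passed the minimum, 45 of the large subunit and its stalk and 30 of the small subunit. TPM, the transcript-abundance unit of the files, corrects for transcript length, so levels of different genes are compared on that scale only.

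Libraries came from 2 groups of 5 mice, 1 library per mouse. All were wild-type C57BL6 mice by label (male C57BL/6J in the study's methods), and all were labelled as vehicle-treated. Dosing with vehicle (DMSO, PEG-300 and water) at 10 mL/kg daily for 6 to 9 weeks is described in the methods for HFD+mTAC mice. The study also describes RNA-Seq of hearts taken 6 h after 1 dose of vehicle. The dose and duration in control mice are not given in the sources used here. HFD+mTAC mice underwent moderate transverse aortic constriction, a partial tie around the aorta that raises pressure load on the left ventricle, at 11 weeks of age and then ate a diet with 60% of kilocalories from fat. Control mice shared this starting age of 11 weeks, by the purchase age and acclimatisation that the methods give for C57BL/6J mice. They had no constriction and ate chow with 10% of kilocalories from fat. The operation, the diet and any difference in dosing thus cannot be told apart. The study uses the combination, with 16 weeks of induction, to model HFpEF, heart failure in which the ejection fraction is preserved.

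The cytosolic ribosome is built of a small subunit, which decodes mRNA, and a large subunit, which joins amino acids, and each protein is present about once per particle. Most mRNAs for these proteins begin with a cytosine and a run of pyrimidines, the terminal oligopyrimidine (TOP) tract, through which mTOR controls their translation as a group. In heart muscle, ribosome number is known to grow with hypertrophy, and striated muscle uses Rpl3l, a paralog of Rpl3, in part of its ribosomes. Mouse ribosomal protein genes have many processed pseudogenes, copies of the spliced mRNA inserted elsewhere in the genome, and reads from gene and copy can be hard to separate.

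Annotated start sites were searched for CTTTC, a pyrimidine run of the kind found in TOP tracts. Of the 75 genes, 56 matched the RefSeq promoter table (GRCm38.p6). The letters CTTTC lay within 25 bases of an annotated start, on the gene's strand, in 19 of these 56 (33.9%) and in 7.87% of all 27025 genes in the table, and in 6.71% of the other genes tested. CCGGAAG, the core bound by ETS factors, was found on either strand of the 300-base promoter in 39.3% of them, 9.93% of all genes and 18.4% of the other genes tested. TATAAA was found within 40 bases before the start in 0 of 56, beside 2.78% of all genes and 1.78% of the other genes tested. The windows below run 5′ to 3′ with 15 bases before the start and 15 from it on, with CTTTC in capitals. The first 6 hold it, wholly before the annotated start in Rps15a, from the first base on in Rplp2 and after it in Rpl15. In Rpl35 and Rps27 it lies on both sides. In Rpl7a the capitals end just before the start, and another CTTTC, from their last base on, runs across the start. Rps6 lacks CTTTC but has another pyrimidine run, and Rpl3l, from its upstream annotated start, lacks CTTTC and has shorter runs.
Rpl35, chr2:39005117-39005146, minus strand: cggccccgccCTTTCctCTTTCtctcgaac
Rps15a, chr7:118116133-118116162, minus strand: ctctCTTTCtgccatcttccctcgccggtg
Rps27, chr3:90213634-90213663, minus strand: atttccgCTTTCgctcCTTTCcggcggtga
Rpl7a, chr2:26910792-26910821, plus strand: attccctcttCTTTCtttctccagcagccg
Rplp2, chr7:141447636-141447665, plus strand: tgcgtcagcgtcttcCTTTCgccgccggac
Rpl15, chr14:18270972-18271001, minus strand: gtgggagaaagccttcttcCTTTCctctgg
Rps6, chr4:86857353-86857382, minus strand: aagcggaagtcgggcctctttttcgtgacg
Rpl3l, chr17:24727811-24727840, plus strand: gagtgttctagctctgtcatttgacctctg

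Some members share long identical stretches with pseudogene copies, and a 30-base window common to gene and copy is shown for a pair of them. Rps6 and Rps6-ps4 (chromosome 2) were identical over 750 aligned bases, and Rpl12 and Gm10275 (chromosome 10) over 495.
Rps6 and Rps6-ps4: gacactactgtgcctcgtcggttgggacct
Rpl12 and Gm10275: aagccctcaaggagccaccgagagacagga

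Total estimated counts per mouse, in units of 1e+06, were 34.2 to 53.7, of which 12.7 to 21.1 fell on the 13305 protein-coding nuclear genes tested. Mitochondrially encoded genes took 47.8% ± 3.57 of counts in control mice and 50.1% ± 2.37 in HFD+mTAC mice (SD, n = 5 each), and they enter the total to which TPM is scaled. All 9 cardiomyocyte markers were detected, whereas the 8 lymphocyte markers summed to at most 1.06 TPM in any mouse. The cardiomyocyte markers summed to 19206 to 24391 TPM in control mice and 16840 to 20382 TPM in HFD+mTAC mice. All genes tested together also held fewer TPM in HFD+mTAC mice (137031 ± 15341) than in control mice (153110 ± 21266). The part of this scale in the marker sums was not tested. In bulk tissue, fewer cells of a type and less RNA per cell cannot be told apart either.

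Ribosomal protein mRNA ranged widely between genes in the genes' own rows, without copies. Rps2, a small subunit protein near the mRNA entry, had the highest mean at 349 TPM, and was followed by Rps29 (310 TPM), Rpl19 (282 TPM), Rpl23a (258 TPM) and Rps15a (239 TPM). Rps2 lay above Rpl19 in every mouse and above Rps29 in every mouse but TT-587 (350 against 355 TPM). Levels also varied between mice, with SDs in control mice of 72.5 TPM for Rps2, 57.8 TPM for Rps29, 46.7 TPM for Rpl19 and 118 TPM for Rps15a. Rps15a ran from 38.9 to 338 TPM, and its effective transcript length from 53.7 to 577 bases, so its level and place are uncertain. The lowest were Rpl37 (1.12 TPM) and Rps23 (1.56 TPM), just inside the minimum, then Rpl18, Rpl13a (7.01 TPM) and Rps25 (8.96 TPM). Just outside it were Rps7 (0.355 TPM) and Rpsa (0.192 TPM), with Rpl8 and Rpl39l at about 0.04 TPM and Rpl10l and Rps12 at 0. Such low levels lay beside members near 300 TPM.

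Reads were divided unevenly between genes and copies. Of the 75 members, 57 had at least 1 listed pseudogene of at least 98% identity over at least 70% of the copy, 200 copies in all for the 82 symbols. Copies of members summed to a mean of 1023 TPM, 10.3% of genes and copies together (8.75 to 11.7% per mouse). In 13 members the copies held over 10% of the joint level, and in 5 of them over 50%. Those 5 were Rpl37 (89.6% in copies, chiefly Rpl37rt), Rps6 (87.2%, Rps6-ps4), Rpl5 (84.9%, Gm15500), Rpl27a (69.0%, Gm7536) and Rpl15 (64.6%, Rpl15-ps3). Rps6, the subunit protein phosphorylated downstream of mTOR, thus had 40.1 TPM in its own row and 272 TPM in those of its copies. Among rows outside the minimum, Rps7 had a mean of 71.0 TPM in copies. The copy of Rpl8 was carried by TT-588 and TT-590, with 274 and 299 TPM for gene and copy together against less than 0.1 TPM in the other 8 mice. With copies added, Rps29 was highest (381 TPM), followed by Rps2 (353 TPM), Rps15a (323 TPM), Rps6 (312 TPM) and Rpl7a (299 TPM), so the order above holds for own rows alone and the levels of these genes are uncertain.

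The split between gene and copy also differed between mice. Rpl12, part of the stalk base, stood at 29.1 CPM in control mouse TT-583 and 28.8 CPM in HFD+mTAC mouse TT-589, against 150 to 270 CPM in the other 8 mice. CPM are counts scaled to a common library total after TMM normalization. The copy Gm10275 was highest in just these mice, at 147 and 125 TPM against 9.4 to 79.7 TPM in the others. Summed with its copies, Rpl12 ranged from 211 to 313 CPM and its coefficient of variation over the 10 mice went from 48.5 to 12.5%. Rpl13 behaved alike. Its copy Gm12918 was listed at 0 in TT-583, TT-587 and TT-591, the mice with the highest Rpl13 (311, 338 and 374 CPM), and the coefficient of variation went from 42.3 to 15.3% with copies. The plot of 4 genes with and without copies shows these shifts.

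**Figure D1:**
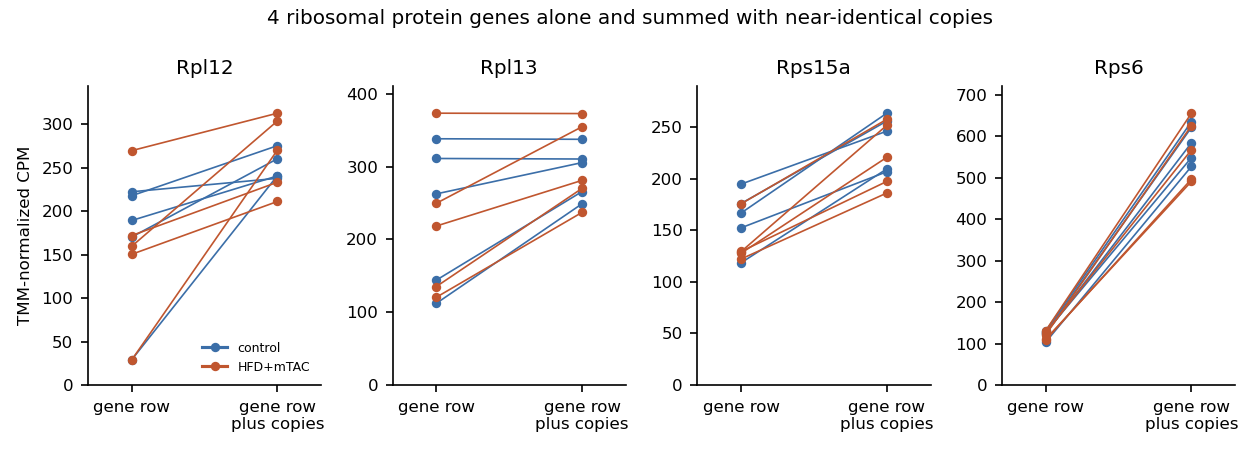
TMM-normalized CPM (vertical axis) of Rpl12, Rpl13, Rps15a and Rps6 in each of 10 mice, for the gene's own row and after adding near-identical pseudogene copies, with 1 line per mouse coloured by group. The 2 mice with Rpl12 near 29 CPM move to the range of the others, and Rps6 moves from 103 to 131 CPM up to 491 to 655 CPM.

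The summed level of ribosomal protein mRNA overlapped between the groups on every scale, and the sign of the difference in means depended on the scale. In TPM as deposited, control mice had 10363, 11583, 7737, 7980 and 9272 (TT-583 to TT-587) and HFD+mTAC mice 7353, 6981, 9327, 9484 and 9412 (TT-588 to TT-592). TT-583 and TT-584 lay above all HFD+mTAC mice, whereas TT-585 and TT-586 lay below 3 of them. The means were 9387 ± 1619 and 8512 ± 1235 TPM (SD, n = 5 each), a difference of -9.33%. Large and small subunit genes gave the same ratio, 0.907 each. With only the mitochondrially encoded genes taken out of the total, the difference was -7.46%. Rescaled over the 13305 genes tested, which also takes out all untested nuclear rows, the means of the 74 members tested were 61126 ± 5164 and 62224 ± 8573, 1.80% higher in HFD+mTAC mice. The untested nuclear rows held 213680 ± 13195 TPM in control and 222862 ± 19771 TPM in HFD+mTAC mice, chiefly unprocessed pseudogenes (a mean of 208699 TPM), whereas the genes tested held 153110 ± 21266 and 137031 ± 15341 TPM. In summed CPM they were 19660 ± 1848 and 19167 ± 3083, a difference of -2.51%. No test was run on these sums, and each difference in means was smaller than the SD of either group. With 1 mouse left out, the deposited difference ran from -13.1% (without TT-585) to -3.69% (without TT-584). The cardiomyocyte marker sum was also lower in HFD+mTAC mice, and its part in the deposited difference was not tested.

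**Figure D2:**
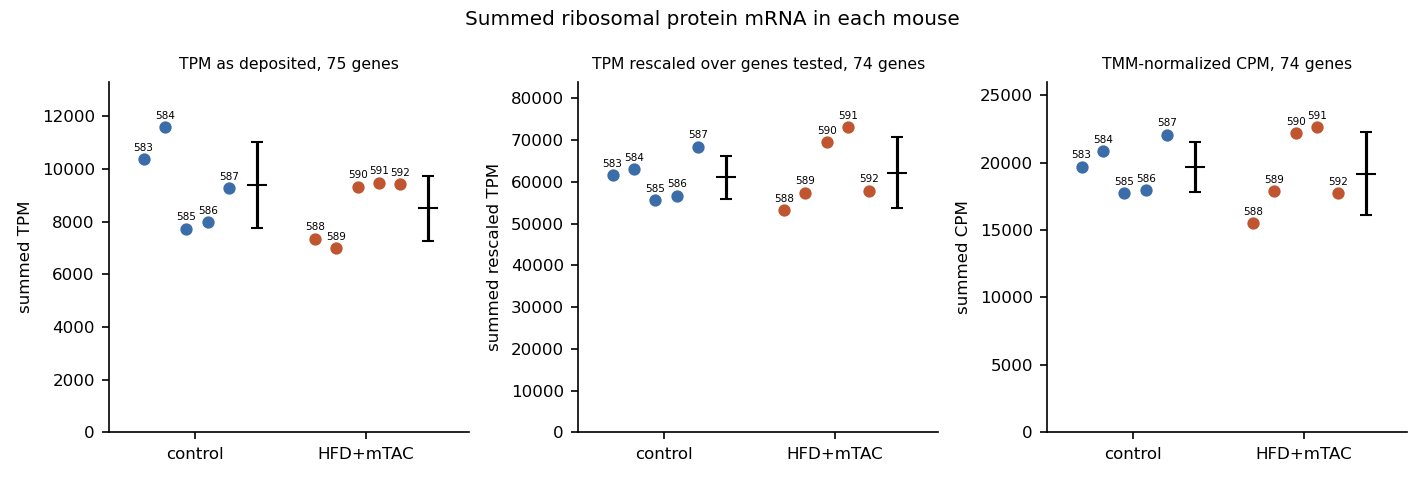
Summed ribosomal protein mRNA per mouse (points, labelled with the mouse number) on 3 scales: TPM as deposited, TPM rescaled over the genes tested, and TMM-normalized CPM, with mean and SD of 5 mice per group as bars. The groups overlap in each panel, and TT-588 is the lowest mouse on the rescaled TPM and CPM scales.

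Gene by gene, no ribosomal protein mRNA was called different between HFD+mTAC and control mice by edgeR's quasi-likelihood test (Benjamini-Hochberg adjusted over 13305 genes). Of the 74 members tested (Rps4l is annotated as a pseudogene and was not tested), 0 had an adjusted p under 0.05, and the smallest was 0.505, against 8 of all genes tested (0.0601%). DESeq2 and limma also called 0 members. At an unadjusted p under 0.05, 1 member was lower and 0 were higher, where 3.72% of all genes were lower and 4.54% higher. No member had groups that did not overlap, whereas 0.887% of all genes lay lower in all HFD+mTAC mice than in any control mouse and 1.07% higher.

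The estimates were small and mostly below 0. The median log2 fold change was -0.05 (quartiles -0.12 and 0.0016), beside a median of 0.0017 over all genes, and 55 of 74 members (74.3%) were below 0, where 49.6% of all genes were. By subunit, 32 of 45 large and 23 of 29 small subunit genes were below 0, with medians of -0.07 and -0.05. This direction rested on single mice: without control mouse TT-587, 33 of 74 were below 0 with a median of 0.012, and without HFD+mTAC mouse TT-588, 32 with a median of 0.018. It was also weaker in limma on log2(TPM + 1), where 40 of 74 were below 0, beside 44.1% of all genes in that fit. The medians there were -0.013 for members and 0.024 for all genes. Other abundant genes with equally short transcripts had a median of -0.08 (543 genes with a mean of at least 10 TPM and under 600 bases of effective length), beside -0.05 for 58 ribosomal protein genes in the same range.

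The median standard error was 0.14 on the log2 scale, and 95% intervals, with the test's own degrees of freedom, lay within 0.5 of 0 for 57 of 74 genes and within 0.3 for 19. They reached beyond 1 for 3 genes, Rpl18, Rps14 and Rpl12, whose mice varied most.

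**Figure D3:**
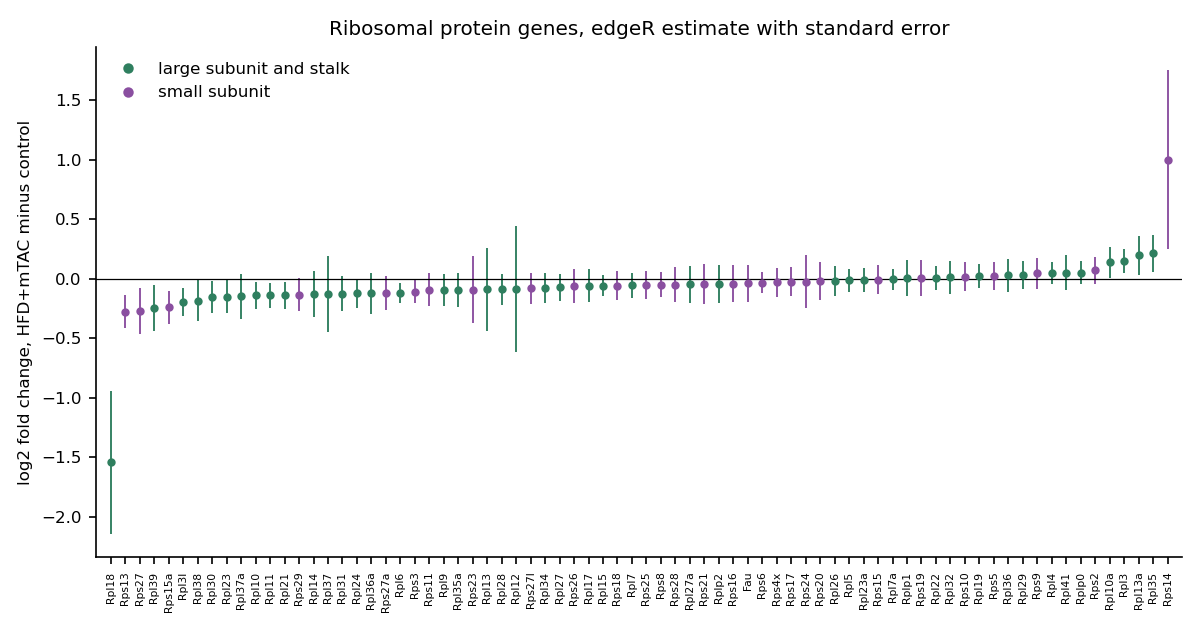
Log2 fold change (HFD+mTAC minus control) of the 74 ribosomal protein genes tested, ordered by size, with edgeR standard errors as bars and colour for the subunit. All but Rpl18 at -1.54 and Rps14 at 1.00 lie between -0.28 and 0.21, and 55 lie below 0.

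Rpl18 and Rps14 had the largest estimates and the widest spread. Rpl18, a large subunit protein, had 9.60, 19.0, 118, 67.0 and 16.4 CPM in control mice against 17.4, 10.9, 14.4, 9.56 and 26.8 CPM in HFD+mTAC mice. Control mice TT-585 and TT-586 were high and the remaining 8 mice overlapped, and the log2 fold change was -1.54 (SE 0.60, unadjusted p = 0.0238, adjusted p = 0.505). Without TT-585 it was -0.82. Rps14, of the small subunit platform, had 29.4, 169, 115, 40.2 and 0.472 CPM in control mice against 76.7, 107, 193, 151 and 183 CPM in HFD+mTAC mice. It was nearly absent in the row of TT-587, and its log2 fold change was 1.00 (SE 0.75, adjusted p = 0.79), and 0.68 without TT-587 and 1.61 without TT-584. Rps14 had 0 listed copies and those of Rpl18 held 0.21% of the joint level. Adding copies thus could not move the estimates (-1.53 and 1.00) and is no check on them.

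Among members with a mean of at least 50 TPM, the lowest estimates belonged to Rps13, Rps27, Rpl39, Rps15a and Rpl3l. Rps13, a small subunit protein, had 110, 85.8, 70.1, 102 and 124 CPM in control mice against 77.8, 82.1, 92.7, 85.3 and 67.7 CPM in HFD+mTAC mice. The groups overlapped, with TT-583, TT-586 and TT-587 above all HFD+mTAC mice, and the log2 fold change was -0.28 (SE 0.14, adjusted p = 0.651). Rps27, Rpl39 and Rpl38, which lie at the ribosome's surface or exit tunnel, had log2 fold changes of -0.27, -0.24 and -0.19 with standard errors of 0.17 to 0.19. In each of these 3, TT-587 was the highest and TT-588 the lowest of the 10 mice. Without TT-587 the estimates were -0.12, -0.08 and -0.05, and without TT-588 they were -0.17, -0.15 and -0.10.

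Rps15a changed sign with the scale. In CPM it was 162 ± 28.6 in control and 137 ± 21.9 in HFD+mTAC mice (log2 fold change -0.24, SE 0.14, adjusted p = 0.7), but limma on log2(TPM + 1) gave 0.61. Its effective transcript length, by which the authors' TPM is divided, was 577 bases in TT-585 and 53.7 to 176 bases in the other mice, and TPM in TT-585 was 38.9 against 193 to 338. With copies added, the estimate in CPM was -0.09. No direction is read for this gene.

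Higher estimates were found for Rpl35, Rpl13a, Rpl3 and Rpl10a. Rpl35, which sits at the exit of the peptide tunnel, had 188, 254, 253, 278 and 327 CPM in control mice against 239, 282, 376, 350 and 261 CPM in HFD+mTAC mice. Only TT-590 and TT-591 exceeded the highest control mouse, and the log2 fold change was 0.21 (SE 0.16, adjusted p = 0.786). Rpl13a, known also for a role in interferon-gamma responses, went from 40.6 ± 5.30 to 46.5 ± 11.5 CPM, and Rpl10a from 201 ± 23.0 to 221 ± 43.4 CPM, both within the spread of the mice.

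Members with known special roles showed no difference beyond the spread. Rplp0, the stalk protein often used as a reference gene, was at 740 ± 69.9 and 767 ± 91.4 CPM (adjusted p = 0.936). Rpl5 and Rpl11, which with 5S rRNA bind Mdm2 when ribosome assembly is disturbed, were at 138 ± 12.5 and 137 ± 17.2 CPM and at 255 ± 34.7 and 231 ± 20.5 CPM. Rps19, the gene most often mutated in Diamond-Blackfan anemia, was at 165 ± 22.0 and 166 ± 38.4 CPM, and Rps26, another gene of that disease, at 233 ± 33.3 and 224 ± 45.8 CPM. Rps27a, made as a fusion with ubiquitin, was at 264 ± 39.6 and 243 ± 48.9 CPM.

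Rpl3 and its striated muscle paralog Rpl3l had estimates of opposite sign, neither past the threshold. For Rpl3l (chromosome 17), CPM were 335, 374, 316, 271 and 269 in control mice against 245, 321, 258, 298 and 243 with HFD+mTAC. Its log2 fold change was -0.20 (SE 0.12, adjusted p = 0.709). For Rpl3 (chromosome 15), CPM were 247, 269, 251, 269 and 290 against 246, 260, 339, 331 and 296, and the log2 fold change was 0.15 (SE 0.10, adjusted p = 0.765). HFD+mTAC mice TT-590, TT-591 and TT-592 lay above every control mouse for Rpl3. For Rpl3l, the offset for transcript length moved the estimate to -0.03.

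The ratio of Rpl3l to Rpl3 in TPM was 1.97, 1.77, 1.77, 1.65 and 1.54 in control mice against 1.39, 1.89, 1.29, 1.87 and 1.16 with HFD+mTAC. Rpl3l thus exceeded Rpl3 in all 10 mice, and 3 HFD+mTAC mice lay below every control mouse. The mean log2 ratio was 0.79 ± 0.13 and 0.57 ± 0.32, a difference of -0.22 (two-sided exact permutation test, p = 0.206, adjusted p = 0.61 over 6 pairs). With counts in place of TPM the difference was -0.33 (exact permutation test, p = 0.0714).

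None of the other 5 paralog pairs was called different by the same test either. Rps27l, induced by p53, reached 0.345 to 0.454 of Rps27 in control mice and 0.408 to 0.528 in HFD+mTAC mice, and its log2 ratio was 0.19 higher (exact permutation test, p = 0.0873, adjusted p = 0.524). Rpl36al stood at 0.628 to 0.987 and 0.665 to 1.02 of Rpl36a. Rps4l was at 0.0903 to 0.194 and 0.116 to 0.177 of Rps4x, and Rpl22l1 at 0.121 to 0.187 and 0.110 to 0.178 of Rpl22. Rpl7l1 had a mean of 1.00 TPM beside 221 TPM for Rpl7. Rpl39l was near 0 and Rpl10l at 0 beside Rpl39 (54.3 TPM) and Rpl10 (213 TPM), so no ratio was formed. Adjusted p-values of these 5 pairs were 0.524 to 0.77.

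Although no member passed the adjusted threshold between the groups, ribosomal protein genes varied together between mice of one group. After subtraction of group means, the Pearson correlation of a gene's log2 CPM with the mean log2 CPM of the other members over the 10 mice had a median of 0.90, and 51 of 74 genes were above 0.8. On the CPM scale 55 of 74 genes were lowest in TT-588. TT-587 was highest for 29, TT-591 for 20 and TT-590 for 17. In deposited TPM the order differed, since TT-584 was highest for 48 of 75 and TT-589 lowest for 36. These mice belong to both groups. The within-group SD of a gene had a median of 0.24 on the log2 scale. Rpl18 (-0.50) and Rps14 (-0.29) went against the others, and Rpl11 (0.14), Rpl3l (0.16), Rpl6 (0.18) and Rpl12 (0.22) followed them least.

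**Figure D4:**
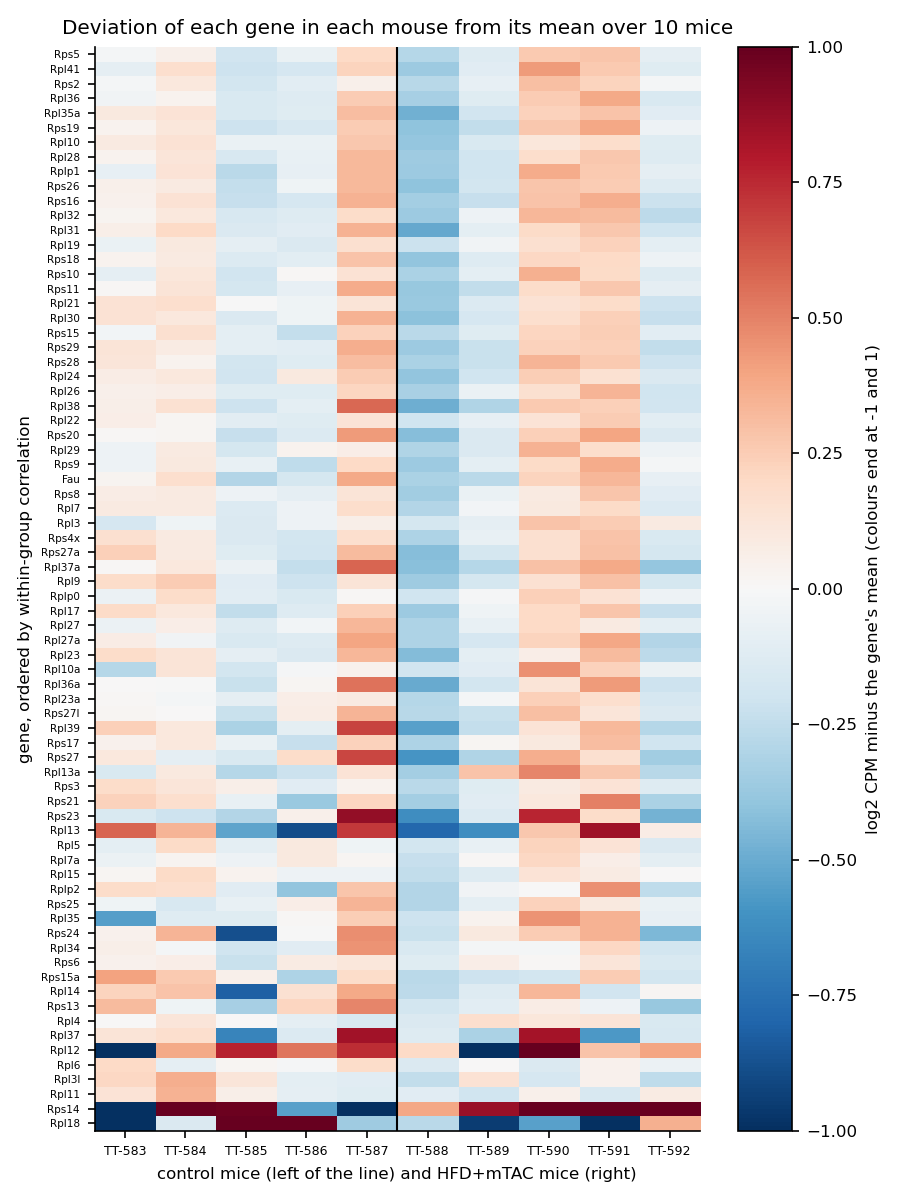
Deviation of each of 74 ribosomal protein genes in each mouse from the gene's mean over 10 mice (log2 CPM, colours ending at -1 and 1), genes ordered by their within-group correlation with the other members and a line between control and HFD+mTAC mice. Most genes are low in TT-588 and high in TT-587, TT-590 and TT-591, whereas Rps14 and Rpl18 at the bottom vary on their own.

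This co-variation was shared with other short transcripts. Effective length had a median of 283 bases in members and 3157 bases in the other genes tested. Among other genes with a mean of at least 10 TPM, the median correlation with the members was 0.73 under 600 bases, 0.37 at 600 to 1000 bases, -0.20 at 1000 to 2000, -0.55 at 2000 to 4000 and -0.71 above. Ribosomal protein genes under 600 bases had a median of 0.92, and the 3 of 1000 to 2000 bases one of 0.78. Under 600 bases, 75.9% of ribosomal protein genes and 40.9% of the other genes were above 0.8. All these values come from the same 10 libraries and are descriptions. The part of transcript length in the co-variation was not tested.

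**Figure D5:**
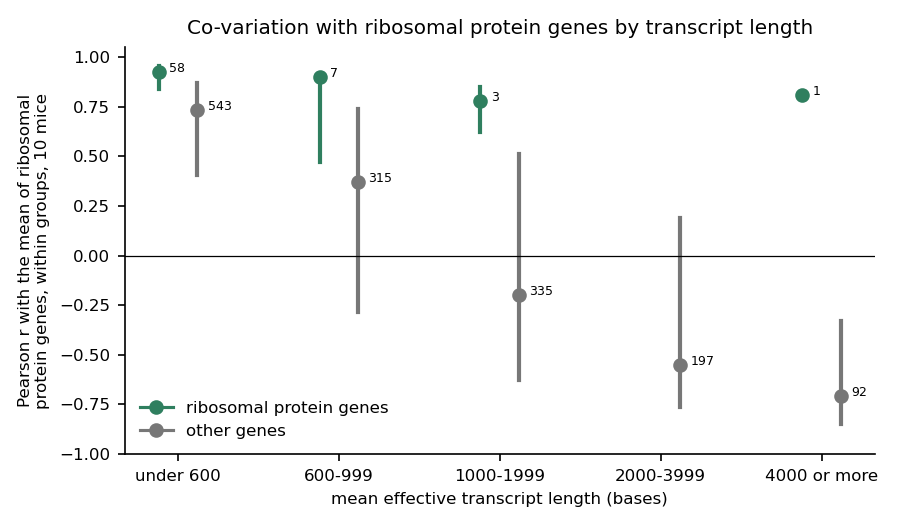
Pearson correlation (vertical axis) with ribosomal protein genes within groups over 10 mice, by effective transcript length in bases (horizontal axis), for ribosomal protein genes and other genes of at least 10 TPM. Points are medians, bars quartiles and numbers the genes in each class, and other genes go from 0.73 in the shortest class to -0.71 in the longest.

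Lists of genes around the ribosome also held no gene past the adjusted threshold. Of 22 translation factors and other genes listed for TOP mRNAs, 11 were lower and 11 higher. Their median log2 fold change was -0.00053, and 0 passed the adjusted threshold. Btf3 (191 ± 20.0 and 171 ± 19.0 CPM) and Eif3k (108 ± 9.47 and 98.9 ± 13.8 CPM) had the smallest p among the lower ones. Poly(A)-binding protein Pabpc1 (212 ± 13.1 and 243 ± 28.4 CPM) and elongation factor Eef2 (2019 ± 220 and 2294 ± 73.9 CPM) had the smallest among the higher ones, with adjusted p = 0.607 and 0.615. Within groups, 9 of the 22 correlated with the ribosomal protein genes above 0.8, among them Eef1b2 (0.95), Tpt1 (0.94) and Eef1a1 (0.93). Eef2 was at -0.31 and Naca at -0.88. Of other genes of at least 10 TPM, 40.9% of those under 600 bases were above 0.8, and 5.43 to 17.5% in the longer classes. The 22 genes include short and long transcripts (Eef1b2 279 bases, Eef1a1 1553 bases), and the part of length in their correlations was not tested.

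Of 29 ribosome biogenesis genes, 18 were lower and 11 higher, with a median of -0.02 and 0 past the threshold. Nop58, a core protein of box C/D particles that guide rRNA methylation, was at 31.6 ± 2.72 and 27.0 ± 3.55 CPM (adjusted p = 0.604) and Bysl, a small subunit assembly factor, at 41.3 ± 3.91 and 36.7 ± 3.47 CPM. Ncl, encoding nucleolin, was at 374 ± 40.5 and 396 ± 32.1 CPM, and Nop14 at 33.5 ± 1.73 and 34.6 ± 3.61 CPM. Their median correlation with the ribosomal protein genes was -0.13, and 4 of 29 were above 0.5.

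RNA polymerase I genes, which transcribe rRNA, counted 5 lower and 9 higher of 14 with a median of 0.04 and 0 past the threshold. The smallest p-values belonged to Znrd1 (14.1 ± 2.31 and 11.7 ± 2.02 CPM) and Taf1b (4.75 ± 3.74 and 3.03 ± 1.09 CPM) among the lower and to Taf1d (1.59 ± 1.72 and 3.10 ± 1.72 CPM) and Twistnb (14.3 ± 1.38 and 15.7 ± 2.02 CPM) among the higher.

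Of 16 regulators of TOP mRNAs and ribosome synthesis, 6 were lower and 10 higher with a median of 0.07, and 0 passed the adjusted threshold. At an unadjusted p under 0.05 in edgeR, 1 was lower and 2 higher, where 3.72% of all genes were lower and 4.54% higher. Rheb, the GTPase that activates mTOR, was at 105 ± 8.13 and 90.3 ± 5.82 CPM (log2 fold change -0.22, SE 0.08, adjusted p = 0.461). Mxd4, a Max partner that opposes Myc, was at 77.2 ± 3.78 and 105 ± 26.9 CPM (log2 fold change 0.44, SE 0.15, adjusted p = 0.418), and Akt1s1, an mTOR inhibitor known as PRAS40, at 65.7 ± 3.31 and 73.7 ± 5.76 CPM. Max itself was at 48.7 ± 8.76 and 43.1 ± 7.24 CPM.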

How the data were processed

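Left ventricular polyadenylated RNA of 5 control and 5 HFD+mTAC mice was analyzed, grouped by the sample labels. Per the study's methods, a stranded mRNA kit was used, and reads were trimmed with fastp and quantified with salmon (version 1.6.0 per the labels' processing notes) on GENCODE mouse transcripts. The labels give single-end and the methods paired-end reads, and the labels name a human build while the files hold mouse symbols. The authors deposited estimated counts per gene without normalization, summed from transcripts with tximport. The deposited TPM values were scaled by the authors within each mouse and divided by effective transcript length, which was also deposited in bases. Of the counts of ribosomal protein genes, 86.3% were not whole, and counts were rounded. TPM columns sum to 94.8 to 96.6% of the full scale.

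Genes were tested when protein-coding and nuclear with at least 1 count in 9 of 10 mice. GENCODE M21 gave biotypes and positions (27812 symbols, with 35 more through RefSeq symbols and 873 through synonyms). It is an older release than M25 named in the methods. The test was edgeR 4.0.16 in R 4.3.3 (TMM, quasi-likelihood, Benjamini-Hochberg adjusted p under 0.05, common dispersion 0.0423, no covariate). Fold changes are log2, HFD+mTAC minus control, and fold standard errors are the estimate over the square root of F. Paralog ratios were tested by exact permutation (two-sided), for which the smallest possible p is 0.0079. Pseudogene copies were found with BLAST 2.17.0 in Python 3.11.15. Precision is that of 5 mice per group, and separate mice are taken from the labels' mouse numbers.

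Members and lists were chosen with earlier results of these data known. Named were the 5 highest and 5 lowest members by TPM, the 6 smallest p in each direction, the 5 largest changes in each direction among those of at least 50 TPM, paralog pairs and genes of known roles, with the 2 smallest p in each direction per pathway list. Rpl12, Rpl13 and genes given for their correlation were chosen after their values were seen. Mouse numbers are unique to a mouse, so there is no pairing. Scripts were tested on simulated data.

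Alternatives were DESeq2 1.42.0 and its size factors, upper-quartile normalization, TMM without ribosomal protein genes, limma 3.58.1 on log2(TPM + 1) and log2(TPM + 0.1), other filters, all biotypes, a length offset, the robust test and omission of each mouse. Summing members with copies, TPM rescaled outside the mitochondrial genome, and the alternatives for Rpl12, Rpl13 and the pathway genes were added after seeing the data. Some items are not reported here.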

Additional observations from a re-analysis of the deposited data

Results flagged for a closer look

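The genes chosen by the naming rule, Rpl12, Rpl13, the summed TPM and CPM and the Rpl3l to Rpl3 ratio were checked in each group for a mouse far from the others. Of these 116 groups of 5 mice, 8 had a gap to the nearest mouse of more than 0.71 of the group's range, and chance alone flags about 1 in 20 groups. In control mice, Rpl36a was 127 CPM in TT-587 (74.4 to 88.3 CPM in the others) and Rps23 was 28.5 CPM in the same mouse (12.7 to 16.1 CPM). Rps6 was 103 CPM in control mouse TT-585 (124 to 130 CPM). In HFD+mTAC mice, Rpl37 was 5.23 CPM in TT-590 (1.98 to 2.69 CPM) and Rps15a was 176 CPM in TT-591 (122 to 129 CPM). Rpl12 was 29.1 CPM in control mouse TT-583 (170 to 222 CPM in the others). Taf1b was 11.3 CPM in control mouse TT-585 (2.11 to 3.89 CPM), and Twistnb was 19.3 CPM in HFD+mTAC mouse TT-591 (14.4 to 15.4 CPM).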

How the results depend on the processing

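No member passed the adjusted threshold in any of 22 other fits of all genes, and 0 to 3 did at an unadjusted p under 0.05. Over all genes, 8 passed in edgeR, 120 in DESeq2 and 1 in limma. No paired analysis was possible because mouse numbers differ between the groups. The summed TPM difference of -9.33% became 1.80% when TPM was rescaled over the genes tested and -7.46% when rescaled outside the mitochondrial genome, which was added after seeing the data. With each mouse left out, it ranged from -13.1 to -3.69%, the median log2 fold change of members ranged from -0.12 to 0.018 and the number below 0 from 32 to 67, and the Rpl3l to Rpl3 log2 ratio difference from -0.30 to -0.13.

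Among named genes other than Rpl3 and Rpl3l, 86 of 1166 values, over 23 genes, changed sign, none past the threshold in any fit, and the cause was not tested. With each mouse left out, the log2 fold change ranged for Fau from -0.14 to 0.060, Nop14 -0.00042 to 0.082, Rpl12 -0.38 to 0.17, Rpl13 -0.37 to 0.080, Rpl19 -0.039 to 0.070, Rpl22 -0.061 to 0.052, Rpl23a -0.079 to 0.049, Rpl36a -0.27 to 0.013, Rpl37 -0.42 to 0.099, Rpl41 -0.064 to 0.13, Rpl5 -0.077 to 0.033, Rpl7 -0.12 to 0.0019, Rplp0 -0.0065 to 0.11, Rplp1 -0.099 to 0.091, Rplp2 -0.19 to 0.019, Rps19 -0.10 to 0.093, Rps2 -0.0032 to 0.14, Rps23 -0.35 to 0.17, Rps25 -0.12 to 0.034, Rps26 -0.14 to 0.023, Rps4x -0.11 to 0.036 and Rps6 -0.087 to 1.7e-05. With limma on log2(TPM + 1), Fau was at 0.023, Rpl22 at -0.054, Rpl23a at 0.042, Rpl7 at 0.053, Rplp2 at 0.019, Rps15a at 0.61, Rps19 at -0.00011, Rps25 at 0.0079 and Rps6 at 0.053, and log2(TPM + 0.1) gave the same values but for Rps19 (-0.00024) and Rps25 (0.0078). With copies added, Rpl12 was at 0.085 and Rpl13 at 0.046. With transcript length as offset, Rpl22 was at -0.080, Rpl23a 0.023, Rpl7 0.027, Rps15a 0.30 and Rps6 0.016. Rplp1 was at -0.00012 with DESeq2 and with its size factors, and at -0.00063 with no low-count filter. With 5 mice per group, a median standard error of 0.14 limits what can be seen, and genes with near-identical copies are measured with added error.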
